A study of Mus musculus with 4 samples.

Results

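The genes described here are 37 genes of fatty acid and triglyceride synthesis, from the supply of acetyl-CoA to the last acylation of glycerol, out of 19938 genes with a probe set of their own on the array. They were taken from a named list, each read at the probe set with the highest mean, and all 37 were found. Whole back skin of C57Bl6 mice was profiled at postnatal day 22, when hair follicles rest (telogen), at ZT22, that is 22 hours after lights on in a cycle of equal light and dark. The 2 mice called heterozygous (het) had 1 mutant and 1 wild-type allele of Bmal1, which encodes the transcription factor that works with CLOCK in the circadian clock. The 2 knockout (KO) mice had both copies deleted in the germline, so that every cell of the skin and of the rest of the body lacked the gene. Both genotypes therefore carried at least 1 mutant allele, and no wild-type mice are compared here. Mice ate standard chow freely, and the design text calls the replicates littermates, with 1 Affymetrix whole-transcript array per mouse.

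Fatty acids are built in the cytosol from acetyl-CoA, which ATP citrate lyase and acetyl-CoA synthetase supply, by acetyl-CoA carboxylase and fatty acid synthase. Elongases of the ELOVL family then lengthen the chain, desaturases of the SCD and FADS families add double bonds, and acyltransferases join the products to glycerol to make phospholipids and triglycerides. In skin this work is divided among tissues: sebocytes make sebum, adipocytes store triglyceride, and keratinocytes make the very long chains of the barrier. SREBP-1c and ChREBP are the transcription factors best known for driving the pathway.

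Values are log2 probe set signals after quantile normalization, differences are knockout minus heterozygous, and p-values come from limma fitted over 17557 probe sets. The level of Arntl, the symbol of Bmal1, was lower in both knockout arrays (8.29 and 8.15) than in both heterozygous arrays (8.90 and 9.08). The log2 difference was -0.76 (SE 0.12, limma adjusted p = 0.10), or 0.588-fold, so a signal of this probe set remained in the knockout arrays. Heterozygous array 2 stood apart. Its correlation with heterozygous array 1 over probe sets was 0.966, and with knockout arrays 1 and 2 it was 0.946 and 0.975, while the other pairs lay between 0.975 and 0.980. It was the lowest of the 4 arrays for 39.4% of tested probe sets and for 31 of the 36 tested synthesis genes (86.1%). Differences of the genes the text turns on are therefore also given without this array.

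Most synthesis genes read higher in the knockout arrays, but by unequal amounts. Of the 37, 36 lay above the filter on dim probe sets (a mean above 6.66) and were tested. Elovl2, which elongates polyunsaturated chains, did not pass it, at 5.51 and 5.55 (heterozygous) and 5.43 and 4.98 (knockout). The number of genes past an adjusted p of 0.05 in limma was 0, and so was that of all probe sets (0%). With a stricter filter 1 gene passed, beside 119 of 11705 probe sets, and with a robust prior 1, beside 202 of 17557. When each gene kept 1 probe set 4 passed, beside 383 of 14945. With the label number as a block 8 passed, beside 1308 of 17557, but the labels do not say that it marks a litter. An unadjusted p under 0.05 was found for 10 of the 36 (27.8%), against 15.5% of all tested probe sets. All 10 were higher, against 9.64% of all tested probe sets, and 0 were lower, against 5.82%. Both knockout arrays lay above both heterozygous arrays for 17 (47.2%), against 26.9% of probe sets, and below for 0, against 22.4%. The median difference was 0.24, against 0.02 over all tested genes. Since the genes were chosen with earlier results of these data known, these counts carry no test of their own. In whole skin, a change in the number of cells of a type and a change in RNA per cell cannot be told apart.

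The excess depended in part on heterozygous array 2. With it, 32 of 36 differences were positive (88.9%, against 52.6% of probe sets). Without it 23 were positive, against 48.1%, and the median was 0.11. Both knockout arrays then lay above the remaining heterozygous array for 18 genes, against 34.5% of probe sets, and below it for 8, against 38.8%, and 8 genes had an unadjusted p under 0.05 in the higher direction, against 5.70% of probe sets. Without heterozygous array 1 the median was 0.43 and that count was 23, against 13.2%. With arrays centred on a common median instead of quantile normalized, 35 differences were positive and 14 were past that p (15.4% of all probe sets), and with the deposited values 34 and 12 (15.1%).

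**Figure D1:**
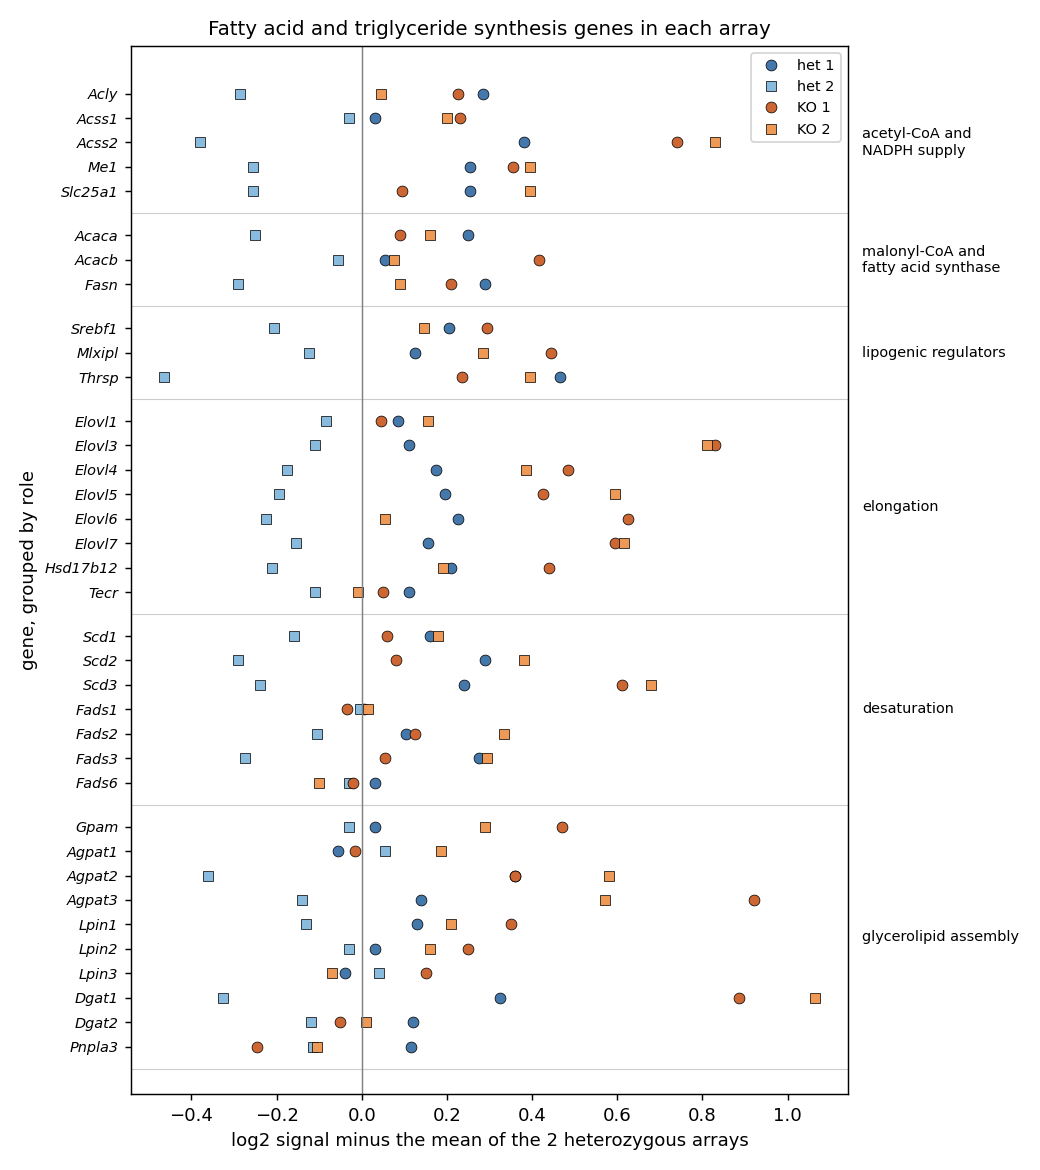
Log2 signal of the 36 tested genes in each array, as the distance from the mean of the 2 heterozygous arrays (x axis), by role (y axis). Blue points are heterozygous and orange points knockout arrays. Heterozygous array 2 is leftmost in most rows, and the knockout points stand clear of both blue points for Dgat1, Elovl3, Agpat3, Elovl7 and Scd3 but not for Fasn, Acaca or Scd1.

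**Figure D2:**
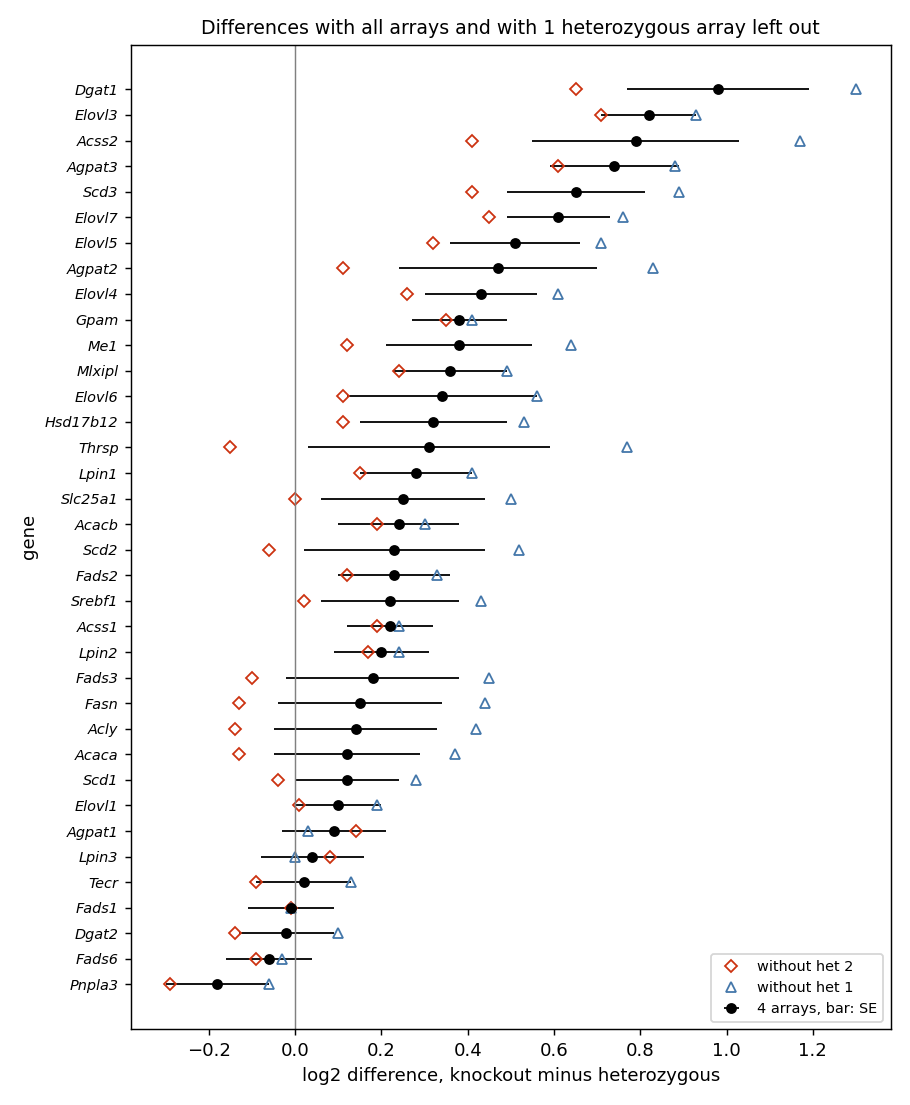
Log2 differences, knockout minus heterozygous (x axis), of the 36 genes (y axis), with all 4 arrays (filled circles, bars are limma SEs) and with heterozygous array 2 (diamonds) or 1 (triangles) left out. The difference of Dgat1 runs from 0.65 to 1.30 and that of Elovl3 from 0.71 to 0.93, while that of Fasn runs from -0.13 to 0.44 and so changes sign.

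The genes that supply acetyl-CoA and NADPH gave 5 positive differences of 5 (52.6% of all probe sets were positive). The 1 gene with an unadjusted p under 0.05, a share near the 15.5% of all probe sets, was Acss2, the cytosolic enzyme that makes acetyl-CoA from acetate. Acss2 read 9.83 and 9.07 in the heterozygous and 10.19 and 10.28 in the knockout arrays, a difference of 0.79 (SE 0.24, limma adjusted p = 0.23). Both knockout arrays were above both heterozygous arrays, and heterozygous array 2 was far below the rest, so that the difference was 0.41 without it. The mitochondrial Acss1 differed by 0.22, Me1, malic enzyme, by 0.38, Slc25a1, which exports citrate from mitochondria, by 0.25 and Acly, ATP citrate lyase, by 0.14. Without heterozygous array 2, Me1 differed by 0.12, Slc25a1 by 0.00 and Acly by -0.14. Both Me1 probe sets gave like differences, 0.38 and 0.35.

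The 2 genes at the core of the pathway overlapped between genotypes. Fasn, fatty acid synthase, read 12.56 and 11.98 in the heterozygous and 12.48 and 12.36 in the knockout arrays, a difference of 0.15 (SE 0.19, limma adjusted p = 0.72). Acaca, the cytosolic acetyl-CoA carboxylase, read 10.87 and 10.37 against 10.71 and 10.78, a difference of 0.12 (SE 0.17, limma adjusted p = 0.76). For both genes heterozygous array 1 was the highest of the 4 and heterozygous array 2 the lowest, with the knockout arrays between them. A second Acaca probe set differed by 0.21 (SE 0.17). Acacb, the carboxylase at the mitochondrial surface whose malonyl-CoA restrains fatty acid oxidation, differed by 0.24, and its knockout arrays, at 10.00 and 9.66, lay above the heterozygous ones, at 9.64 and 9.53.

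Of the regulators, the gene for SREBP-1 and Thrsp overlapped between genotypes, while that for ChREBP did not. Srebf1 read 9.45 and 9.04 in the heterozygous and 9.54 and 9.39 in the knockout arrays, a difference of 0.22 (SE 0.16, limma adjusted p = 0.54), or 0.02 without heterozygous array 2. Thrsp, a lipogenic protein abundant in fat, read 11.08 and 10.15 against 10.85 and 11.01, a difference of 0.31 (SE 0.28, limma adjusted p = 0.63). It had the widest gap between the heterozygous arrays of any of the 36 genes, -0.92, and differed by -0.15 without array 2. Mlxipl, which encodes ChREBP, read 8.60 and 8.35 in the heterozygous and 8.92 and 8.76 in the knockout arrays, a difference of 0.36 (SE 0.13, limma adjusted p = 0.28), or 0.24 without heterozygous array 2. Its knockout arrays both lay above the heterozygous range.

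Elongation held more genes with an unadjusted p under 0.05 than any other role, 4 of its 8 tested genes, all higher (9.64% of all probe sets were). All 8 differences were positive (52.6% of all probe sets), with a median of 0.38. Elovl3, the elongase of sebaceous glands and brown fat that makes saturated and monounsaturated very long chains, read 10.02 and 9.80 in the heterozygous and 10.74 and 10.72 in the knockout arrays. The difference was 0.82 (SE 0.11, limma adjusted p = 0.095), or 1.76-fold. The knockout arrays were nearly equal and the heterozygous arrays close to each other, and leaving out any 1 array gave 0.71 to 0.93. Elovl3 had the smallest p of the 36 genes. Its adjusted p was 0.040 under the stricter filter (50th percentile), 0.022 under a robust prior and 0.0083 when each gene kept 1 probe set, in a range of 0.0032 to 0.65 over all settings and arrays left out.

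Elovl7, an elongase of saturated long-chain acyl-CoAs, read 11.32 and 11.01 in the heterozygous and 11.76 and 11.78 in the knockout arrays, a difference of 0.61 (SE 0.12, limma adjusted p = 0.15). Elovl5, which elongates polyunsaturated chains, read 12.32 and 11.93 against 12.55 and 12.72, a difference of 0.51 (SE 0.15, limma adjusted p = 0.22). Elovl4, which makes the ultra-long chains of the skin barrier, read 13.14 and 12.79 against 13.45 and 13.35, a difference of 0.43 (SE 0.13, limma adjusted p = 0.23). In these 3 genes both knockout arrays lay above both heterozygous arrays. Without heterozygous array 2 the differences were 0.45, 0.32 and 0.26, still positive in all 3.

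The remaining elongation genes overlapped between genotypes. Elovl6, which takes palmitate to stearate, differed by 0.34, but its knockout arrays were unlike, at 12.90 and 12.33, and without knockout array 1 it differed by 0.05, and without heterozygous array 2 by 0.11. Elovl1, which elongates saturated very long chains, differed by 0.10, or 0.01 without heterozygous array 2. Hsd17b12, the ketoacyl reductase of the elongation cycle, differed by 0.32, or 0.11 without that array. Tecr, the enoyl reductase of the cycle, differed by 0.02, with -0.09 without heterozygous array 2 and -0.01 without knockout array 1.

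Among the desaturases, 1 of 7 tested genes, Scd3, had an unadjusted p under 0.05, a share near the 15.5% of all probe sets. Scd3, the stearoyl-CoA desaturase known from sebaceous glands and Harderian gland, read 12.15 and 11.67 in the heterozygous and 12.52 and 12.59 in the knockout arrays, a difference of 0.65 (SE 0.16, limma adjusted p = 0.19), or 0.41 without heterozygous array 2. Scd1, the form made by both sebocytes and adipocytes, read 13.71 and 13.39 against 13.61 and 13.73, a difference of 0.12 (SE 0.12, limma adjusted p = 0.66). Scd2 read 10.64 and 10.06 against 10.43 and 10.73, a difference of 0.23 (SE 0.21, limma adjusted p = 0.63). Only for Scd3, of these 3, were both knockout arrays above both heterozygous arrays, and without heterozygous array 2 Scd1 and Scd2 differed by -0.04 and -0.06. The Scd genes are close paralogs, so a probe set of one may also read another, which was not tested. The difference between Scd3 and Scd1 was not tested either.

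The FADS genes differed by 0.23 or less. Fads2, the delta-6 desaturase, differed by 0.23, with both knockout arrays above the heterozygous ones, and Fads3 by 0.18. Fads1, the delta-5 desaturase, read 9.38 and 9.37 in the heterozygous and 9.34 and 9.39 in the knockout arrays. Its difference of -0.01 and that of Fads6, -0.06, both turned positive, to 0.13 and 0.03, when arrays were centred on a common median.

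The steps that assemble glycerolipids held both the highest and the lowest difference of the 36 genes. Dgat1, an enzyme of the last step of triglyceride synthesis that also makes wax esters and retinyl esters, read 10.20 and 9.55 in the heterozygous and 10.76 and 10.94 in the knockout arrays. The difference was 0.98 (SE 0.21, limma adjusted p = 0.17), or 1.97-fold, and 0.65 without heterozygous array 2. Both knockout arrays were well above both heterozygous arrays. Dgat2, the other enzyme of the same step, read 12.16 and 11.92 against 11.99 and 12.05, a difference of -0.02 (SE 0.11, limma adjusted p = 0.94), which was 0.06 with arrays centred on a common median, 0.03 with the deposited values, 0.10 without heterozygous array 1 and 0.01 without knockout array 1. Its knockout arrays lay inside the heterozygous range. Pnpla3, an acylglycerol hydrolase and transacylase of lipid droplets, had the lowest difference, -0.18.

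Earlier acylation steps held Agpat3 and Gpam, the other genes of this role with an unadjusted p under 0.05. Agpat3, which adds an acyl chain to lysophosphatidic acid, read 10.84 and 10.56 in the heterozygous and 11.62 and 11.27 in the knockout arrays, a difference of 0.74 (SE 0.15, limma adjusted p = 0.16), or 0.61 without heterozygous array 2. Gpam, the mitochondrial glycerol-3-phosphate acyltransferase, read 9.70 and 9.64 against 10.14 and 9.96, a difference of 0.38 (SE 0.11, limma adjusted p = 0.22). For Gpam the array left out mattered little, with 0.29 to 0.47. Agpat2, the form of adipocytes, differed by 0.47 (0.11 without heterozygous array 2). Its heterozygous array 1 and knockout array 1 both read 11.63. Agpat1 differed by 0.09. Of the lipins, which remove phosphate from phosphatidic acid, Lpin1 differed by 0.28, Lpin2 by 0.20 and Lpin3 by 0.04.

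The sequences just before the start sites were read because BMAL1 with CLOCK binds E-boxes, whose canonical letters are CACGTG. RefSeq (GRCm38.p6) windows were found for 31 of the 37 genes, and the 250 bases before the start were searched on both strands. No window for Elovl3, Scd1, Scd2, Fads1, Dgat1 or Dgat2 was among the sequences used, so these 6 genes were not searched. The motif CACGTG stood in a window of 4 of the 31 (12.9%), Slc25a1, Mlxipl, Elovl5 and Lpin2, against 6.86% of the 27025 genes with a window, where each motif was counted on its own and overlaps were allowed. The near match CACGTT stood in 3 (9.68%), Acacb, Elovl4 and Agpat3, against 4.5%. The D-box letters TTATGTAA were in 0, against 0.977%, and the sterol element letters TCACNCCAC in 1 (3.23%), Mlxipl, against 1.22%. CCAAT stood in 17 (54.8%, against 37.5%) and GGGCGG in 22 (71%, against 35.4%). The 27025 genes were not limited to those tested on the array, so none of these shares is read as an excess. Elovl3 and Dgat1, which also had an unadjusted p under 0.05, could not be searched. Of the 8 genes with such a p and a window, those that hold CACGTG or CACGTT are shown, with Scd3 as a gene that holds neither. The share of all genes that hold either motif was not counted, so the number shown is not read as an excess. Acss2, Elovl7 and Gpam, not shown, also hold neither. Capitals mark CACGTG or CACGTT, each window is written 5′ to 3′ on the strand of the gene, and the windows are chr5:135089640-135089889 (plus strand) for Mlxipl, chr9:77917115-77917364 (plus) for Elovl5, chr9:83806306-83806555 (minus) for Elovl4, chr10:78351701-78351950 (minus) for Agpat3 and chr19:44203038-44203287 (plus) for Scd3.
Mlxipl: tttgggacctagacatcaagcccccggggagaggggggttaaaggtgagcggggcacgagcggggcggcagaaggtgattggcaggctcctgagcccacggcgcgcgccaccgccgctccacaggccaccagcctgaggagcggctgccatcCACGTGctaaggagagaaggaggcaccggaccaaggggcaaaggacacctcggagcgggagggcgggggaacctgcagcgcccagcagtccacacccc
Elovl5: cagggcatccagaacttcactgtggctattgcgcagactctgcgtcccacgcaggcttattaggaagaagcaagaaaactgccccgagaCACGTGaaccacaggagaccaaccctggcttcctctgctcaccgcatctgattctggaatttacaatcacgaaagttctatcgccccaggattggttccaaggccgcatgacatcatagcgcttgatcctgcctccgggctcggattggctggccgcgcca
Elovl4: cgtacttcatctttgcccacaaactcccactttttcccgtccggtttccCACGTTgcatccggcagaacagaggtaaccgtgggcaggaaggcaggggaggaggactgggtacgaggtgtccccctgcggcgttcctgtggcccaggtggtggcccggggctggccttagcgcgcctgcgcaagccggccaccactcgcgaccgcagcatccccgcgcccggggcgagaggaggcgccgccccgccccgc
Agpat3: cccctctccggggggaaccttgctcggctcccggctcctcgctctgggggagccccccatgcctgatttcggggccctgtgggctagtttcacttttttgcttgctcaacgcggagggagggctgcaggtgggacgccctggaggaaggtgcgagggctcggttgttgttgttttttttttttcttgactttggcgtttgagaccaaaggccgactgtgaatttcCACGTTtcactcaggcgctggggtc
Scd3: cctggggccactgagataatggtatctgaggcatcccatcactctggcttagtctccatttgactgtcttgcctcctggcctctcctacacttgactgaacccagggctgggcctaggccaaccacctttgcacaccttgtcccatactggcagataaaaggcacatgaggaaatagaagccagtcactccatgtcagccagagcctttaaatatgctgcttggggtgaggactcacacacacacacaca
In Mlxipl the E-box letters begin 98 bases before the start and in Elovl5 161 bases before it, and in Elovl4 and Agpat3 the near match begins 201 and 25 bases before it. A match describes letters and no binding was measured.

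The sebaceous genes Elovl3 and Scd3 were set beside 9 genes best known from fat (Thrsp, Mlxipl, Agpat2, Gpam, Lpin1, Pnpla3, Dgat2, Me1 and Acacb) and 24 tested genes of general use, with Scd1 kept apart as it belongs to both tissues. Relative to the mean of the heterozygous arrays, the sebaceous genes averaged 0.18 and -0.18 in heterozygous arrays 1 and 2, then 0.72 and 0.74 in knockout arrays 1 and 2. The adipose genes averaged 0.18 and -0.18, then 0.26 and 0.24, and the general genes 0.16 and -0.16, then 0.29 and 0.28. All 3 groups were thus lower in heterozygous array 2 by about the same amount. Within each array, the sebaceous average minus the general one was 0.01 and -0.01 (heterozygous) and 0.43 and 0.46 (knockout). The sebaceous average minus the adipose one was -0.01 and 0.01, then 0.46 and 0.51. In these averages the offset between heterozygous arrays was nearly absent, but the 2 sebaceous genes deviated in opposite directions. Against the mean of the other 35 tested synthesis genes, Elovl3 was at -0.06 and 0.06 in heterozygous arrays 1 and 2. Scd3 was at 0.07 and -0.07, so the near absence rests in part on their cancelling. The adipose average minus the general one stayed within -0.04 and 0.02 in all 4 arrays. Over the settings and arrays left out, the sebaceous excess ran from 0.43 to 0.47 over the general and from 0.45 to 0.51 over the adipose genes. Differences of this size were not particular to Elovl3 (0.82) and Scd3 (0.65). Of the general genes, Dgat1 differed by 0.98, Acss2 by 0.79 and Agpat3 by 0.74, while the remaining ones differed by less than Scd3. Scd1, made by sebocytes too but kept out of the average, differed by 0.12. Elovl3 and Scd3 were picked with their differences known, so this contrast is a description without a test.

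**Figure D3:**
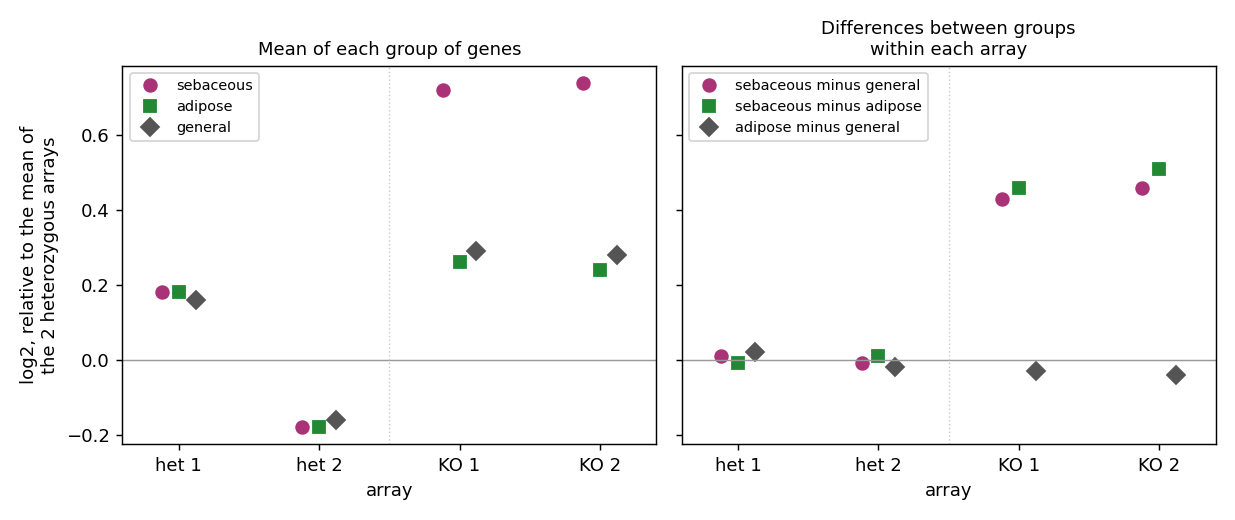
Mean log2 signal of the sebaceous (Elovl3 and Scd3), adipose (9 genes) and general (24 genes) synthesis genes in each array (x axis), relative to the mean of the 2 heterozygous arrays (left), and the differences between these means within each array (right). On the right the sebaceous excess is near 0 in both heterozygous arrays and 0.43 to 0.51 in both knockout arrays.

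Set against the mean of the other 35 tested synthesis genes in the same array, Dgat1 was higher in the knockout arrays by 0.70, Elovl3 by 0.54, Acss2 by 0.51, Agpat3 by 0.46, Scd3 by 0.36, Elovl7 by 0.32, Elovl5 by 0.22 and Elovl4 by 0.14. These were the 8 genes whose knockout arrays both lay above the heterozygous ones on this scale. Another 8 lay below, among them Pnpla3 (-0.48), Fads6 (-0.37), Dgat2 (-0.32), Fads1 (-0.31) and Scd1 (-0.18), and 20 overlapped. Over all tested probe sets 49.4% did not overlap, but on the plain scale. No such share was taken after centring, so these counts are not read as a result. Centring on the other genes also fixes the balance of the sides. This scale was chosen after the values were seen. It places Dgat1 and Dgat2, which catalyse the same step, and Scd3 and Scd1 on opposite sides. On the plain scale Dgat2 (-0.02) and Scd1 (0.12) overlapped between genotypes, so their place below comes with the centring.

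Marker genes of the cell types in skin were read beside these values. Of 7 tested sebocyte markers, 6 had an unadjusted p under 0.05, all higher (9.64% of all probe sets were), with a median difference of 0.59. The list averaged 10.82 and 10.44 in the heterozygous and 11.25 and 11.18 in the knockout arrays. Awat1, a wax ester synthase, differed by 1.12 (SE 0.17), Mc5r, a melanocortin receptor of sebocytes, by 0.59 (SE 0.19) and Mgst1 by 0.12 (SE 0.13). When heterozygous array 2 was left out, these were 0.86, 0.30 and -0.04. Of 11 white adipocyte markers 0 had an unadjusted p under 0.05 (15.5% of all probe sets had), with a median of 0.13. With so few genes a count of 0 is not read as a result. The list averaged 10.61 and 10.11, then 10.31 and 10.61. Adipoq, adiponectin, differed by 0.08, Retn, resistin, by 0.47 and Lep, leptin, by -0.60, or by -0.30, 0.11 and -0.93 without heterozygous array 2. Adipocyte markers, like the core lipogenic genes, were thus low in heterozygous array 2, and they were also low in knockout array 1.

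Brown adipocyte markers went both ways, and skeletal muscle markers went one way. Of the 5 tested brown adipocyte markers, Cidea, also a sebocyte gene, differed by 0.70, Cox8b, also a muscle gene, by 0.63 and Ppargc1a by 0.54, while Otop1 differed by -0.29 and Dio2 by -0.17. Ucp1, the defining marker of brown fat, did not pass the filter, at 5.70 and 5.49 in the heterozygous and 6.01 and 5.78 in the knockout arrays. All 11 skeletal muscle markers had an unadjusted p under 0.05, all higher (9.64% of all probe sets were), with a median of 0.50. They averaged 11.98 and 12.04, then 12.72 and 12.46. What part the numbers of sebocytes, fat cells or muscle fibres had in the values of the synthesis genes was not tested.

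**Figure D4:**
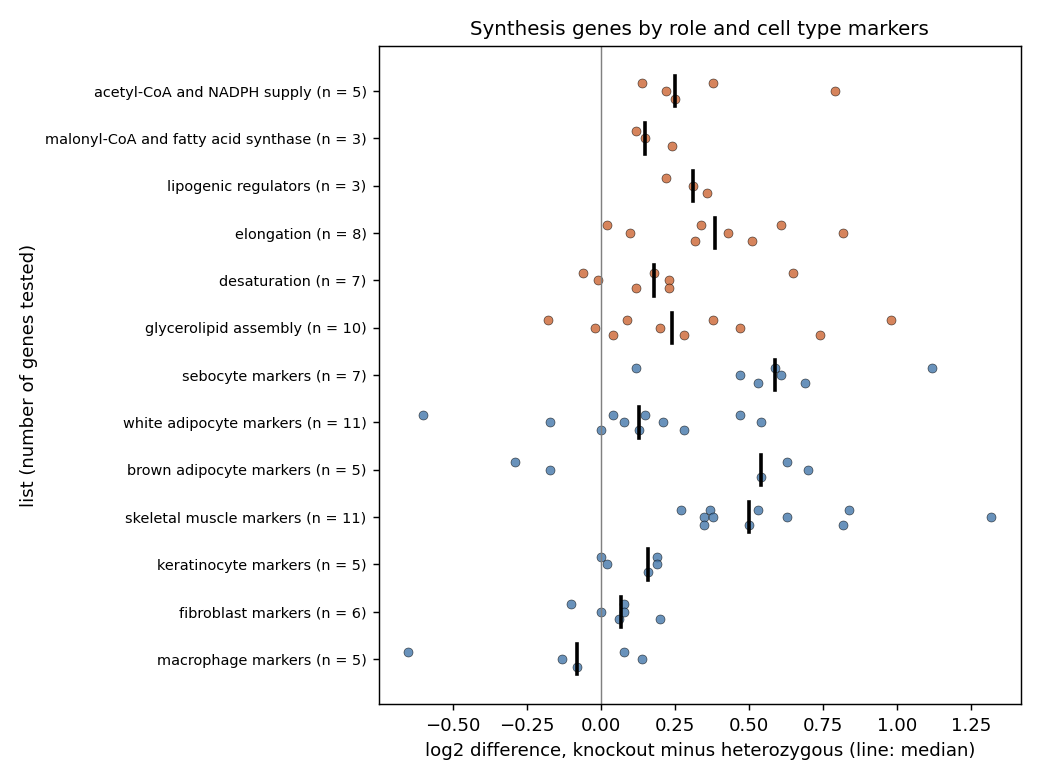
Log2 differences, knockout minus heterozygous (x axis), of synthesis genes by role (orange) and of cell type markers (blue), with 1 point per tested gene and a line at each median. Elongation genes have a median of 0.38, sebocyte markers 0.59, skeletal muscle markers 0.50 and white adipocyte markers 0.13.

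The wider pathway was read from a list of 59 further genes, of which 53 had a probe set of their own and 49 were tested. Of these, 43 were higher (52.6% of all probe sets were) and 6 lower, with a median of 0.19, against 0.02 over all tested genes. None passed an adjusted p of 0.05 in limma, and 12 had an unadjusted p under 0.05, all of them higher (9.64% of probe sets were). The 8 with the smallest p came from several steps. Gpat3, a glycerol-3-phosphate acyltransferase, differed by 0.53 (SE 0.11), Acsl4, an acyl-CoA synthetase, by 0.51 (SE 0.11) and Slc27a4, the fatty acid transport protein of epidermis, by 0.62 (SE 0.15). When heterozygous array 2 was left out, the 3 values were 0.42, 0.56 and 0.48. Insig2, which holds the SREBP escort in the endoplasmic reticulum, differed by 0.37 (SE 0.10), Gpd1, which makes glycerol-3-phosphate, by 0.79 (SE 0.22) and Cs, citrate synthase, by 0.35 (SE 0.10), or by 0.32, 0.44 and 0.26 without that array. Taldo1, transaldolase, differed by 0.50 (SE 0.15) and Hacd2, the dehydratase of the elongation cycle, by 0.38 (SE 0.12). Without that array these were 0.34 and 0.23. Over the 49 genes, the arrays averaged 9.52 and 9.30 (heterozygous) and 9.66 and 9.62 (knockout). The counts and medians of this list, also those by step below, include heterozygous array 2. Without that array some positive differences turned negative, among them those of Mlx, Idh1 and Tkt.

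By step, the medians of these further genes ran from 0.09 to 0.32. The partners of elongation and desaturation had a median of 0.32 over 8 tested genes, with both knockout arrays above both heterozygous arrays in 7 (26.9% of all probe sets). The genes of NADPH and citrate supply had a median of 0.30 over 8, and those of fatty acid activation and uptake 0.29 over 9. The control genes, which include Scap, Srebf2, Nr1h3 and Pparg, had a median of 0.09 over 10. For the other glycerolipid genes it was 0.10 over 8, and for the 6 genes of mitochondrial fatty acid synthesis 0.23. Both knockout arrays also lay above both heterozygous arrays in 7 of the 9 activation and uptake genes and in all 6 mitochondrial ones. The counts were 5 of 8 for supply, 3 of 8 for the other glycerolipid genes, 2 of 10 for control and 30 of 49 in all. Pparg, the nuclear receptor of adipocytes and sebocytes, read 10.24 and 9.85 in the heterozygous and 10.18 and 10.22 in the knockout arrays, a difference of 0.16 (SE 0.15), or -0.04 without heterozygous array 2. Insig1, a target of SREBP, read 10.89 and 10.14 against 10.91 and 11.08, a difference of 0.49 (SE 0.24), or 0.11 without that array, so that it was low in heterozygous array 2 and nearly level in the others.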

How the data were processed

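Per the submitters' processing notes, the authors used Affymetrix Expression Console 1.1.1 and PLIER 2.0. The authors deposited 35557 probe set values per array, taken to be log2 from their range, since the scale, and whether arrays were scaled to each other, were not given in the sources used here. PLIER averages probes along a transcript, and signals near background compress differences.

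Deposited quartiles differed between arrays (25th percentile 6.11 to 6.45), and quantile normalization was applied. The platform annotation paired 21789 probe sets with 1 gene and 1621 with several, and symbols were updated by gene identifier (GRCm38.p6). Probe sets with a gene and a mean above the 25th percentile were tested with limma 3.58.1 in R 4.3.3 (lmFit, eBayes with trend, Benjamini-Hochberg), with 2 residual degrees of freedom. SEs are limma's moderated ones. The number of arrays limits the precision. Every tested gene of the list is named; array values and tests are given for 9 genes of the main steps and those with an unadjusted p under 0.05, and up to 8 wider pathway genes with the smallest p are named. The genes, lists, split by tissue and sequences shown were chosen with earlier results of these data known. Alternatives were other scalings, offsets, filters and variance priors, 1 probe set per gene or their mean, the label number as a block, and leaving out each array.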

Additional observations from a re-analysis of the deposited data

How the results depend on the processing

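With 2 arrays per genotype, the counts of calls varied more between settings than the differences did. The counts past an adjusted p of 0.05 were 0 for the synthesis genes and 0 for all probe sets in the fit reported. They were 0 and 25 with arrays centred on a common median, 1 (Elovl3) and 119 under the 50th percentile filter, 1 (Elovl3) and 202 with a robust prior, and 4 (Elovl3, Elovl7, Agpat3 and Dgat1) and 383 when each gene kept 1 probe set. With the label number as a replicate block they were 8 (Acss2, Elovl3, Elovl4, Elovl5, Elovl7, Scd3, Agpat3 and Dgat1) and 1308. Same-numbered arrays deviated together (r = 0.624 over all tested probe sets), but the labels do not say that the number marks a litter. With 2 pairs the check is only a hint. No such r was taken over the synthesis genes alone. Their median of array 2 minus array 1 was -0.31 in the heterozygous and 0.03 in the knockout arrays. The block also leaves fewer residual degrees of freedom than the fit reported. With an array left out, both counts were 0, where the lone array of a genotype was assumed to vary like the other pair.

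The median difference of the synthesis genes ran from 0.11 to 0.43 with 1 array left out. The sebaceous excess over the adipose genes was 0.45 with centred and with deposited values, and that over the general genes was 0.47 without a filter. Leaving out arrays gave 0.46 to 0.51 and 0.43 to 0.46. Signs turned with centring for Fads1 (0.13), Fads6 (0.03) and Dgat2 (0.06), and with deposited values for Fads1 (0.10) and Dgat2 (0.03). With 1 array left out, signs turned for 13 genes. Without heterozygous array 2 these were Acly (-0.14, up to 0.42), Slc25a1 (0.00, up to 0.50), Acaca (-0.13, up to 0.37), Fasn (-0.13, up to 0.44), Thrsp (-0.15, up to 0.77), Tecr (-0.09, up to 0.13), Scd1 (-0.04, up to 0.28), Scd2 (-0.06, up to 0.52) and Fads3 (-0.10, up to 0.45), each with its highest value without heterozygous array 1. Dgat2 turned without heterozygous array 1 (0.10) and knockout array 1 (0.01), with -0.14 at the other end. Lpin3 turned without heterozygous array 1 (0.00) and knockout array 1 (-0.07), with 0.15 at the other end. Tecr (-0.01) and Fads1 (0.02, down to -0.04) turned without knockout array 1, and Agpat1 (-0.02, up to 0.19) without knockout array 2. The cause was not tested.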

Other observations

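Markers of other cell types of skin gave the following values. The 5 tested keratinocyte markers lay between 0.00 and 0.19, with Krt5 at 0.19 and Krt10 at 0.00. Of these markers 0 had an unadjusted p under 0.05 (15.5% of all probe sets had), which with so few genes is not read as a result. They were low in heterozygous array 2, with a list average of 11.89 against 12.41 in heterozygous array 1. The 6 fibroblast markers lay between -0.10 (Dcn) and 0.20 (Col3a1). Of 5 macrophage markers, Cd68, a lysosomal glycoprotein, was lower in both knockout arrays, with a difference of -0.65 (SE 0.18) and an unadjusted p under 0.05, while Csf1r differed by 0.08 and Mrc1 by 0.14.

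Mogat1, a monoacylglycerol acyltransferase, did not pass the filter, and read 6.56 and 6.53 in the heterozygous and 6.15 and 6.00 in the knockout arrays.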
